A study of Homo sapiens with 12 samples.

Results

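The genes described here encode the RNA polymerase I (Pol I) machinery and the nucleolar factors that process ribosomal RNA and assemble the ribosomal subunits. The list held 53 genes; 50 had a probe set with a single gene symbol, each was represented by its probe set with the highest mean, and all 50 passed the filter on low values, out of 18239 genes measured and 15173 tested. GNL3, DDX18 and EBNA1BP2 were not analysed here. RNA was measured on 12 Affymetrix arrays, 1 for each of 3 human multiple myeloma cell lines under each of 4 conditions. The lines were labelled ARP1, JJN3 and RPMI-8226. Each line was kept for 6 h without drug (Control), with 0.01 µM CPI203, with 5 µM lenalidomide plus 0.05 µM dexamethasone (LenDex), or with all 3 drugs together (Combo). CPI203 inhibits the BET bromodomain proteins, which read acetylated chromatin, lenalidomide redirects the cereblon ubiquitin ligase to Ikaros and Aiolos, and dexamethasone is a glucocorticoid receptor agonist. Lenalidomide and dexamethasone were never given apart, so their contributions cannot be told apart.

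Pol I transcribes the long precursor of the ribosomal RNAs in the nucleolus. UBTF organises the ribosomal DNA, and RRN3 brings initiation-competent Pol I to the promoter. The precursor is then modified under the guidance of box C/D and H/ACA small nucleolar ribonucleoproteins (snoRNPs), and it is cut and folded in the small subunit processome and in pre-40S and pre-60S particles. Many of these genes are known targets of MYC, which binds the E-box CACGTG, and ribosome production is high in cells that grow and secrete protein, such as myeloma cells.

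Promoter windows were examined because the members moved together. RefSeq promoter sequences (GRCh38.p14, 250 bases before to 50 bases after the start) were held for 44 of the 50 members; those without an entry were NOP58, RRP12, RRS1, RRP1B, BOP1 and NOLC1. CACGTG, which reads the same on both strands, was present in 16 of the 44 windows (36.4%), against 9.4% of the 12193 windows of all genes tested and 7.43% of 27305 RefSeq windows. Of the 18 matches in members, 16 (88.9%) lay within 50 bases of the start, from position -15 to position 36, whereas 37.6% of the 1299 matches over all genes tested lay within 50 bases. The 4 windows shown are the members with this hexamer that had the largest changes under Combo. Each is printed 5′ to 3′ on the strand of the gene with the E-box in capitals, and positions count from the start at 1 with no position 0.
LTV1: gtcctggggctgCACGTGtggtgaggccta
WDR43: cgcacggacgaaCACGTGgctgcagcgggg
PNO1: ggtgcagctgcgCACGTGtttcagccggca
BYSL: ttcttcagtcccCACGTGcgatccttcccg
The LTV1 window is chr6:143843354-143843383, positions 17 to 46, and the BYSL window is chr6:41921515-41921544, also at positions 17 to 46. The start used for BYSL lies inside the RefSeq span of the gene, which begins at chr6:41908759. It is thus not the outermost start, and the same holds for some other members, such as PES1. The WDR43 window is chr2:28894658-28894687, positions -9 to 21, and the PNO1 window is chr2:68157885-68157914, positions -3 to 27. All 4 genes lie on the plus strand. The 4 genes act in small subunit maturation, and that group held the E-box in 9 of 16 windows (56.2%).

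The related hexamer CACGCG, searched on both strands, was present in 36.4% of member windows and 16.5% of those of all genes tested. CCAAT was present in 38.6% against 36.6%, and TATAAA in 4.55% against 7.76%. No CACGTG match in a member overlapped a match of the other motifs. None of the 5 Pol I windows held CACGTG, and 4 of them held CACGCG. The E-box did not go with a larger change among the members: the median Combo change was -0.73 on the log2 scale for the 16 windows with it and -0.77 for the 28 without it. These matches are letters in a window, and binding was not measured.

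The ARP1 arrays did not look like those of the other lines. SDC1 (CD138) and PRDM1, which define plasma cells, had mean log2 levels of 12.03 and 11.31 on the ARP1 arrays but 5.38 and 5.43 on the JJN3 arrays and 5.19 and 5.38 on the RPMI-8226 arrays. The B cell gene MS4A1 (CD20) ran the other way, at 4.95, 11.73 and 11.71. Not every marker followed: IRF4 was at 12.05, 12.71 and 12.95, XBP1 and MZB1 were above 10 in all 3 lines, and PAX5 was at 7.13, 7.01 and 7.14. The 9 plasma cell markers had array medians of 11.78 to 11.92 on ARP1, 7.17 to 9.63 on JJN3 and 5.95 to 8.41 on RPMI-8226, and 6 measured B cell markers had medians of 5.40 to 5.62, 8.59 to 9.19 and 8.26 to 9.44. JJN3 and RPMI-8226 arrays correlated at 0.963 to 0.981 over all genes tested and ARP1 with either at 0.867 to 0.887. Single genes did separate JJN3 from RPMI-8226 on all arrays: the fetal globin HBG1 was at 13.19 to 13.32 against 6.77 to 8.53, CD3D at 7.33 to 7.68 against 5.05 to 5.39 and JCHAIN at 7.46 to 9.63 against 4.85 to 5.43. Whether these 2 sets of arrays come from unrelated lines was not tested. The JJN3 control array also stood apart in the immunoglobulin gene IGKC, at 9.32 against 5.11 to 5.55 on the other JJN3 arrays. Lines are therefore named as labelled, and counts with the former arrays averaged, or without that control, are given beside the results. T cell and monocyte markers had array medians of 4.78 to 5.48, with CD3D in JJN3 above that range, and 5 measured erythroid markers had medians of 4.80 to 5.75, with HBG1 also high in ARP1 (mean 12.31). The erythroid factor KLF1 moved with CPI203 in JJN3, at 8.34 in Control, 8.32 under LenDex, 5.99 under CPI203 and 5.61 under Combo, and its part in the members' changes was not tested. Each condition had 1 array per line. The SE and p-values therefore rest on how far changes differed between lines, pooled over all 12 arrays and moderated across genes by limma. They are not the spread between lines of a named change alone. In bulk RNA a change in the make-up of a culture cannot be told apart from a change per cell.

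The triple combination lowered most of the genes. Under Combo, 35 of the 50 members were called lower than in Control and none was called higher, against 5.6% of all genes tested that were called lower and 3.55% called higher (limma, adjusted p under 0.05 over all genes). All 50 differences were below 0, with a median of -0.71 and a range from -1.65 to -0.08 on the log2 scale, where the median of all genes tested was 0.01. The difference was below 0 in all 3 lines for 47 members, against 20.5% of all genes; the exceptions were FBL in JJN3 (0.02) and NOC4L (0.11) and BOP1 (0.08) in RPMI-8226. A called change of at least 2-fold was found for 13 members, against 0.751% of all genes. The calls depended on the arrays in the fit. Without ARP1, 33 members were called, against 6.78% of all genes called lower. Without the JJN3 control array 23 were called, against 1.51%, and with no replicate block for the line 2, against 0.0132%. None was called in a fit of the 6 Control and Combo arrays alone, without JJN3 or without RPMI-8226, where 0% of all genes were called lower. None was called either once the JJN3 and RPMI-8226 values of a condition were averaged, against 0.00659% of all genes. The median of the members stayed between -0.81 and -0.63, and all 50 differences stayed below 0, in each of the 14 alternatives tried.

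**Figure D1:**
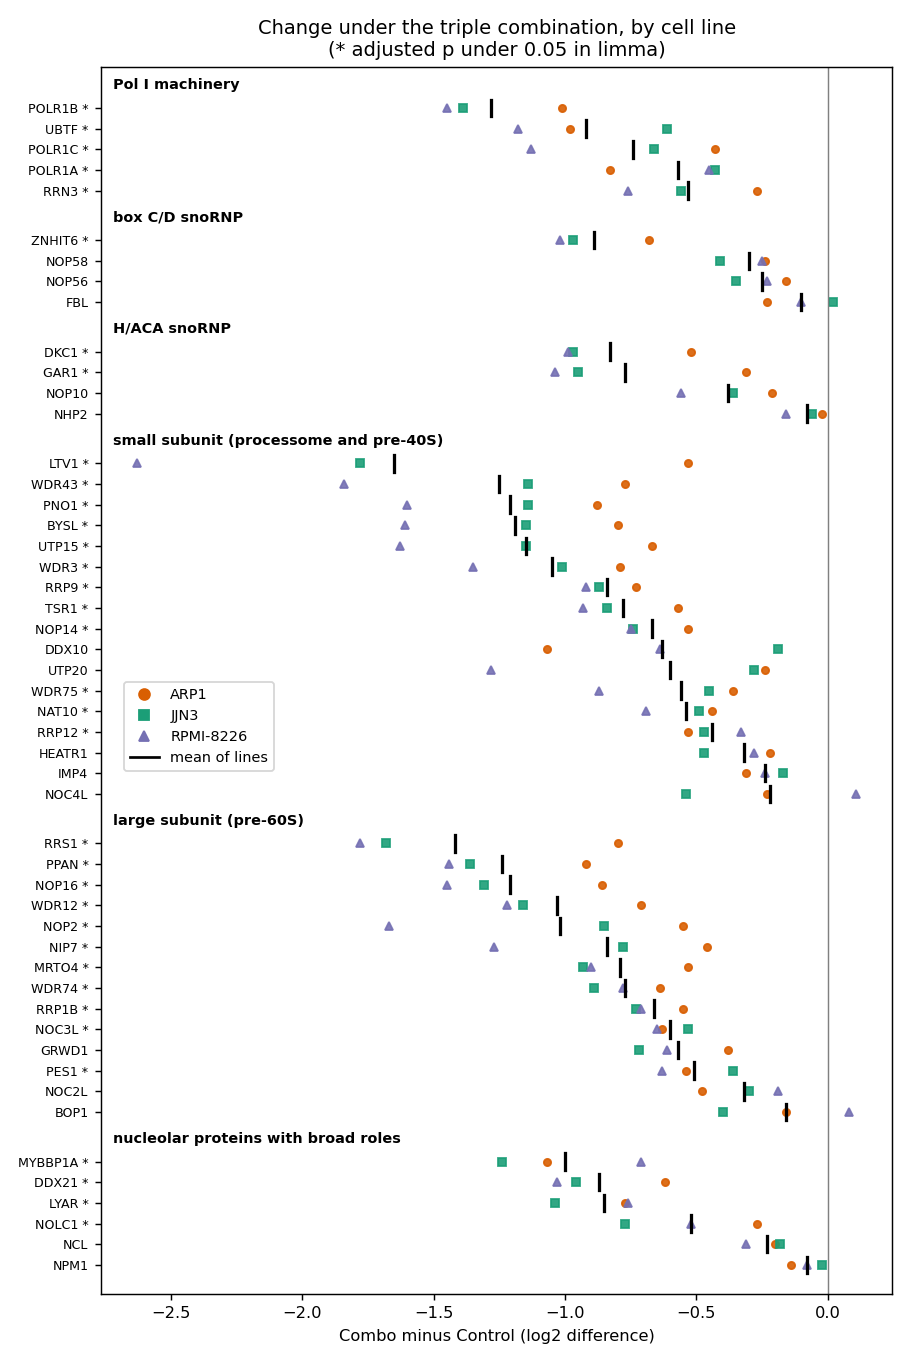
Each row is 1 of the 50 members, grouped by role; the horizontal axis is Combo minus Control in log2 units, with 1 symbol for each line and a black bar at the mean of the lines, and a star marks an adjusted p under 0.05 in limma. Nearly all symbols lie left of 0, LTV1 has the widest spread between lines, and FBL, NHP2, NCL and NPM1 lie close to 0.

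All 5 members of the Pol I machinery were lower under Combo, with a median of -0.74. For this and each role below, the share of all genes called lower under Combo was 5.6%. Roles were not counted apart in the alternative fits. POLR1B, which encodes the second-largest subunit of Pol I and lies at chr2:112542036-112579818 (GRCh38.p14), had log2 levels of 9.91, 10.01 and 10.08 in the ARP1, JJN3 and RPMI-8226 controls. Its levels were 9.48, 9.22 and 9.18 under CPI203, 9.32, 9.27 and 9.42 under LenDex and 8.90, 8.63 and 8.63 under Combo. The 3 controls were thus above every treated array, and the 3 Combo arrays were below every other. The difference between Combo and Control was -1.28 ± 0.11 (SE of the limma fit to all 12 arrays, n = 3 lines), which left 41.1% of the control level (limma adjusted p = 0.00249).

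UBTF had levels of 9.05, 8.70 and 9.11 in Control, 8.53, 8.40 and 7.86 under CPI203, 8.41, 8.36 and 8.30 under LenDex and 8.07, 8.09 and 7.94 under Combo. Every treated array was below the 3 controls, and the lowest array of all was RPMI-8226 under CPI203. The Combo difference was -0.92 ± 0.16 (adjusted p = 0.0112 in limma). POLR1C, a subunit shared by Pol I and Pol III, had levels of 9.70, 9.59 and 9.68 in Control and 9.26, 8.93 and 8.56 under Combo, with 9.57, 9.60 and 9.23 under CPI203 and 9.44, 9.47 and 8.85 under LenDex. Control and Combo did not overlap, and the difference was -0.74 ± 0.14 (adjusted p = 0.0164), from -0.43 in ARP1 to -1.13 in RPMI-8226.

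POLR1A, the largest subunit of Pol I, had levels of 7.01, 7.32 and 7.75 in Control, 6.82, 7.12 and 7.68 under CPI203, 6.71, 7.21 and 7.35 under LenDex and 6.19, 6.88 and 7.30 under Combo. RRN3 had levels of 8.38, 8.94 and 8.43 in Control, 8.35, 8.75 and 8.32 under CPI203, 8.19, 8.50 and 7.91 under LenDex and 8.11, 8.38 and 7.67 under Combo. The POLR1A levels of Control and Combo overlapped because the lines differ in their own level, while each line was lowest under Combo for both genes. The Combo differences were -0.57 ± 0.12 for POLR1A and -0.53 ± 0.11 for RRN3 (limma adjusted p = 0.0191 and 0.0197).

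**Figure D2:**
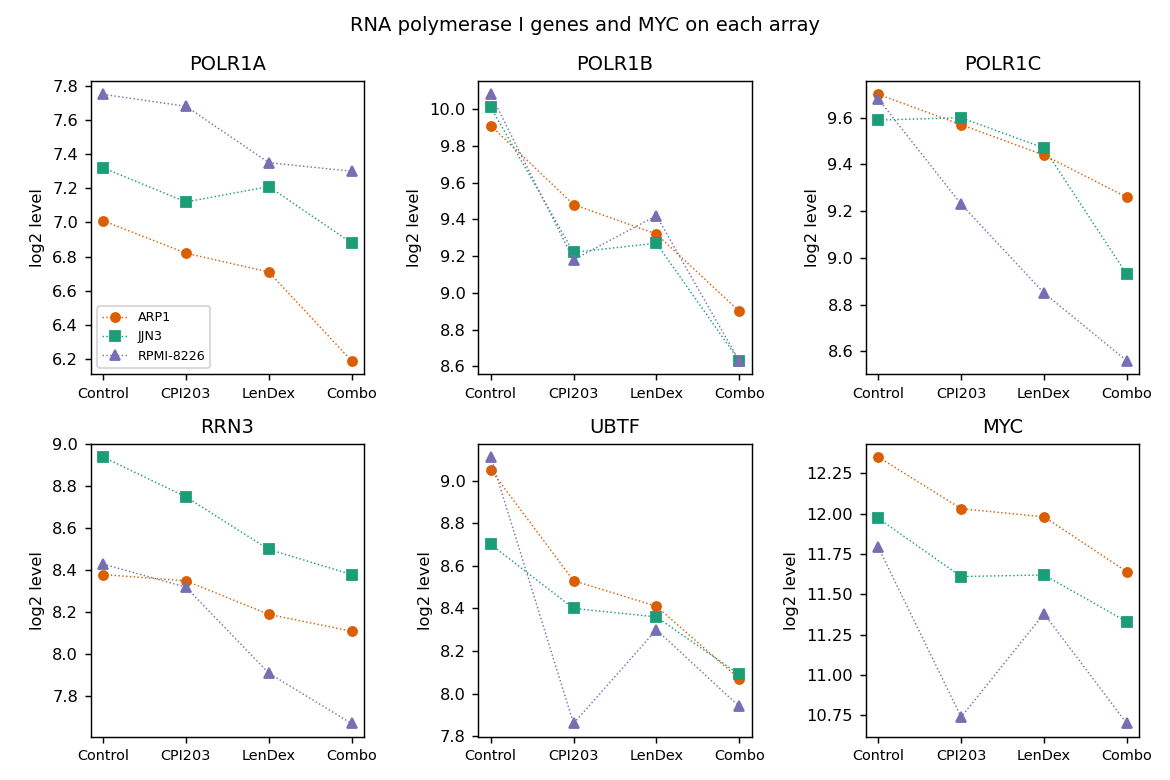
Log2 levels of the 5 Pol I members and of MYC on the 12 arrays, 1 panel for each gene with its own vertical axis, the 4 conditions on the horizontal axis, 1 symbol for each line and dotted lines joining the arrays of a line. POLR1B falls from 10.08 or less in Control to 8.90 or less under Combo, and POLR1A shows lines that keep apart from each other in every condition.

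In the box C/D group 1 of 4 members was called. ZNHIT6, which helps assemble box C/D snoRNPs, had levels of 9.16, 10.36 and 10.13 in Control, 9.05, 10.21 and 9.89 under CPI203, 8.74, 9.86 and 9.68 under LenDex and 8.48, 9.39 and 9.11 under Combo. Within each line the order was the same, Control highest and Combo lowest, and the Combo difference was -0.89 ± 0.10 (limma adjusted p = 0.00343). The core proteins did not pass: the methyltransferase FBL differed by -0.10 ± 0.09, NOP56 by -0.25 ± 0.09 and NOP58 by -0.30 ± 0.09 (adjusted p = 0.559, 0.125 and 0.0715). NOP58 had levels of 12.07, 12.33 and 12.50 in Control and 11.83, 11.92 and 12.25 under Combo, and NOP56 had 12.56, 12.62 and 12.81 against 12.40, 12.27 and 12.58. Control and Combo overlapped for NOP58 and for NOP56. A further NOP58 probe set was lower by more, at -0.57. Its mean level was 9.90, where that of the probe set used was 12.14. The further NOP56 probe sets ran from -0.39 to -0.29. The group median was -0.27, and differences between members were not tested.

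In the H/ACA group, which guides pseudouridylation, 2 of 4 members were called lower under Combo. DKC1, the pseudouridine synthase, had levels of 11.73, 11.94 and 11.77 in Control, 11.52, 11.22 and 11.02 under CPI203, 11.51, 11.51 and 11.37 under LenDex and 11.21, 10.97 and 10.78 under Combo. Control and Combo did not overlap, and the difference was -0.83 ± 0.12 (limma adjusted p = 0.00635). GAR1, a structural protein of the same particle, had levels of 11.05, 10.00 and 9.52 in Control, 10.83, 9.04 and 8.56 under CPI203, 10.89, 9.54 and 9.10 under LenDex and 10.74, 9.04 and 8.49 under Combo. In JJN3 and RPMI-8226 the level under CPI203 alone was already close to that under Combo, and the Combo difference was -0.77 ± 0.15 (adjusted p = 0.0173). NHP2 and NOP10 differed by -0.08 ± 0.09 and -0.38 ± 0.11 and did not pass (adjusted p = 0.665 and 0.0665). NOP10 had levels of 10.35, 10.71 and 10.89 in Control and 10.13, 10.35 and 10.33 under Combo, so the groups met at 10.35.

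Of the 17 small subunit factors, 12 were called lower under Combo (median -0.67). LTV1, a pre-40S assembly factor released late in maturation, had the largest change of all members and also the largest spread. Its levels were 10.45, 9.97 and 9.81 in Control, 10.21, 9.18 and 8.53 under CPI203, 9.85, 9.48 and 7.97 under LenDex and 9.92, 8.20 and 7.18 under Combo. Within ARP1 it changed by -0.53, within JJN3 by -1.78 and within RPMI-8226 by -2.63, and the mean was -1.65 ± 0.32 (limma adjusted p = 0.017), which left 31.9% of the control level. WDR43, of the UTP-A complex that opens processome assembly, had levels of 9.19, 9.16 and 9.14 in Control and 8.42, 8.03 and 7.30 under Combo. Its controls lay within a narrow band and its Combo levels spread with the line (difference -1.25 ± 0.18, adjusted p = 0.00574). PNO1, which helps the final cut of 18S rRNA, had levels of 9.58, 10.00 and 9.90 in Control and 8.70, 8.86 and 8.29 under Combo, with no overlap (-1.21 ± 0.17, adjusted p = 0.00598). BYSL, UTP15 and WDR3 fell by 1.19, 1.15 and 1.05. The 5 small subunit members that did not pass were HEATR1, IMP4, NOC4L, UTP20 and DDX10, with differences from -0.63 to -0.22.

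Of the 14 large subunit factors measured, 11 were called lower under Combo (median -0.78). RRS1, which places the 5S ribonucleoprotein in the pre-60S particle, had levels of 10.87, 10.72 and 10.90 in Control, 10.51, 9.84 and 9.80 under CPI203, 10.55, 10.23 and 10.22 under LenDex and 10.07, 9.04 and 9.11 under Combo. No treated array reached the controls, and the Combo difference was -1.42 ± 0.17 (limma adjusted p = 0.00354), or 37.4% of the control level. PPAN had levels of 9.71, 9.96 and 10.06 in Control and 8.79, 8.60 and 8.62 under Combo (-1.24 ± 0.13, adjusted p = 0.00343). NOP16 had levels of 11.32, 11.22 and 11.34 in Control and 10.46, 9.92 and 9.89 under Combo (-1.21 ± 0.13, adjusted p = 0.00343). Neither PPAN nor NOP16 overlapped between the groups; both act in pre-60S maturation. NOP2, an rRNA methyltransferase, had levels of 9.61, 9.74 and 9.94 in Control and 9.06, 8.89 and 8.27 under Combo, a difference of -1.02 ± 0.18 that ran from -0.55 in ARP1 to -1.67 in RPMI-8226. Within the PeBoW complex, which processes the 28S precursor, WDR12 and PES1 fell by 1.03 and 0.51, whereas BOP1 differed by -0.16 ± 0.11 (adjusted p = 0.436). GRWD1 and NOC2L, at -0.57 and -0.32, also did not pass.

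Among 6 nucleolar proteins with broad roles, 4 were called lower under Combo. MYBBP1A, which associates with Pol I, had levels of 7.97, 7.93 and 8.05 in Control, 6.99, 7.24 and 7.27 under CPI203, 6.70, 7.54 and 7.42 under LenDex and 6.90, 6.70 and 7.34 under Combo. Its controls stood above all treated arrays, but in ARP1 the lowest level was under LenDex, and Combo left 49.9% of the control level (SE of the log2 difference 0.18, limma adjusted p = 0.013). The helicase DDX21 had levels of 12.71, 12.90 and 12.81 in Control and 12.09, 11.94 and 11.78 under Combo (-0.87 ± 0.10, adjusted p = 0.00351). LYAR had levels of 10.89, 11.68 and 11.39 in Control and 10.13, 10.64 and 10.63 under Combo (-0.85 ± 0.11, adjusted p = 0.00415). Both were without overlap. Nucleolin (NCL) and nucleophosmin (NPM1), chaperones that make up much of the nucleolus, differed by -0.23 ± 0.08 and -0.08 ± 0.08 and did not pass (adjusted p = 0.122 and 0.608). NPM1 ran from 13.78 to 13.88 in Control and from 13.64 to 13.85 under Combo, which overlap. The probe sets used for NPM1, NCL, NOP56 and FBL had high mean levels, at 13.78, 13.12, 12.53 and 12.17. The further NPM1 probe sets ran from -0.18, at a mean level of 12.11, to -0.06. DDX21, at a mean level of 12.35, differed by -0.87. Whether a high signal level made changes look smaller was not tested. NCL, NPM1 and the large subunit factor NOC3L had the smallest spread between lines, 0.12 from the lowest to the highest difference, and of these NOC3L fell by 0.60 ± 0.10.

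Each drug arm was then taken over both levels of the other, 6 arrays against 6. With CPI203, 18 of the 50 members were called lower and none higher, against 3.99% of all genes lower and 3.3% higher (limma, adjusted p under 0.05). The median was -0.29, and RRS1 (-0.85 ± 0.12, adjusted p = 0.0124), POLR1B (-0.66 ± 0.08, 0.00873), BYSL (-0.61 ± 0.10, 0.0153), NOP16 (-0.59 ± 0.09, 0.0143) and GAR1 (-0.57 ± 0.11, 0.022) had the largest called changes. With LenDex, 25 members were called lower and none higher, against 2.52% of all genes lower and 1.73% higher. The median was -0.38, and UTP15 (-0.83 ± 0.13, adjusted p = 0.0126), PNO1 (-0.81 ± 0.12, 0.0107), WDR43 (-0.73 ± 0.12, 0.0159), WDR3 (-0.70 ± 0.09, 0.00664) and PPAN (-0.68 ± 0.09, 0.00717) were among the largest called changes. LTV1 had -0.72 ± 0.23 and -0.93 ± 0.23 in these averages and did not pass (adjusted p = 0.0882 and 0.0539). Without the JJN3 control array the counts were 3 and 15, against 0.501% and 1% of all genes called lower. Each was 0 without JJN3, 0 without RPMI-8226, 0 once these lines were averaged and 0 with no replicate block, where 0% of all genes were called lower. The RPMI-8226 LenDex array had the highest 3′ minus 5′ difference of both RNA quality controls (GAPDH -0.087, actin 0.448, where the arrays ran from -0.301 and 0.226). Without that array the counts were 5 and 14, against 0.468% and 0.883% of all genes called lower.

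Of the 50 members, 13 were called lower in both averages, 5 in that of CPI203 and not of LenDex, 12 in that of LenDex and not of CPI203, and 20 in neither. The 5 were UBTF, DKC1, GAR1, MRTO4 and MYBBP1A, and the 12 included POLR1A, POLR1C, RRN3, PNO1, UTP15 and LYAR. GAR1, for example, differed by -0.57 ± 0.11 with CPI203 and -0.20 ± 0.11 with LenDex, and RRN3 by -0.13 ± 0.08 and -0.40 ± 0.08. Whether called or not, 48 members were below 0 in the CPI203 average and 50 in the LenDex average, against 50.7% and 48% of all genes. The split is thus one of calls and not of direction. Over all genes, 3.99% and 2.52% were called lower in these averages, and the overlap of those genes was not counted. Both averages rest on the same 12 arrays, and the difference between the drugs was not tested for any member.

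**Figure D3:**
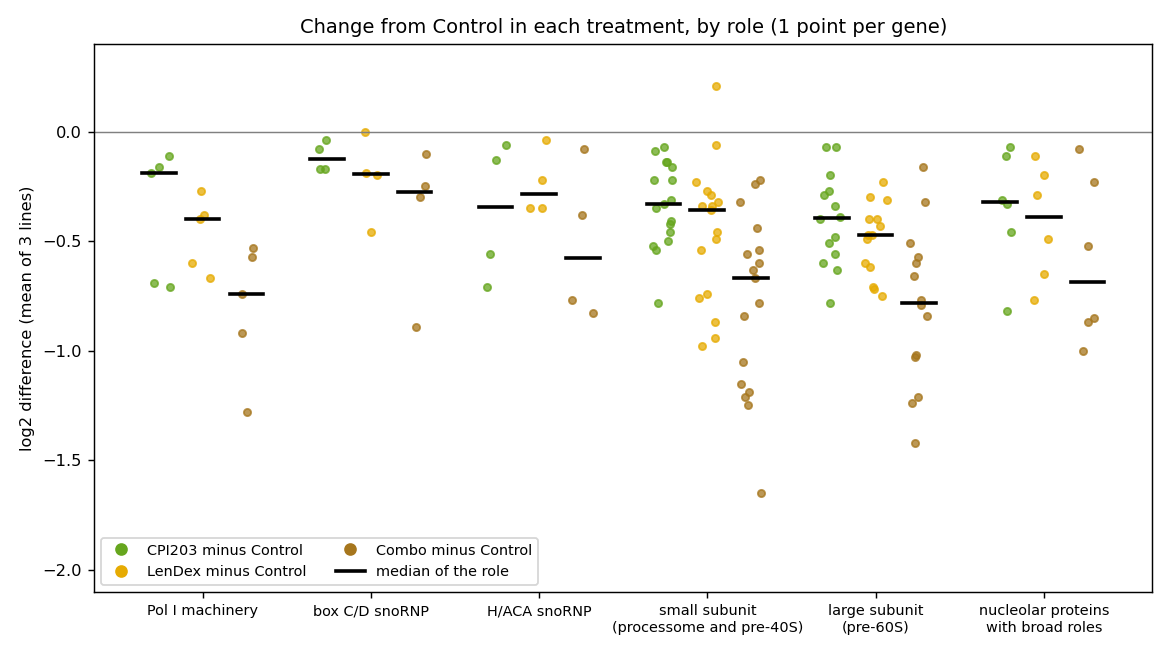
Change against Control in log2 units for each member under CPI203, LenDex and Combo, by role, 1 point for each member and a bar at the median of the role. The medians over all 50 members were -0.32, -0.40 and -0.71, and in every role the Combo median lies below those of the single arms.

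Set against Control alone, each arm rests on 3 arrays a group. CPI203 against Control had a median of -0.32, with all 50 differences below 0, but no member was called; 0% of all genes were called lower and 0.00659% higher, and 25 members were lower at an unadjusted p under 0.05 in limma, against 9.19% of all genes. LenDex against Control had a median of -0.40 and 6 members called lower, against 0.217% of all genes: WDR74 (-0.72 ± 0.10), PPAN (-0.75 ± 0.13), POLR1B (-0.67 ± 0.11), WDR3 (-0.76 ± 0.13), WDR12 (-0.71 ± 0.12) and LYAR (-0.65 ± 0.11), with limma adjusted p from 0.0308 to 0.0485. That count was 9 without ARP1, against 0.732% of all genes called lower. It was 0 without JJN3, RPMI-8226, the JJN3 control array or the RPMI-8226 LenDex array. It was also 0 with JJN3 and RPMI-8226 averaged, with no replicate block or in a fit of the 6 arrays compared. In these fits 0% of all genes were called lower, or 0.0132% without the RPMI-8226 LenDex array. A variance trend with a robust fit called 14 members lower with CPI203 and 17 with LenDex, where it called 1.39% and 1.21% of all genes lower. DDX10, a helicase of the small subunit processome, was the single member above Control in the mean under LenDex, with differences of -0.53, 0.77 and 0.41 by line, and it did not pass (0.21 ± 0.21, adjusted p = 0.731; -0.06 without JJN3 and -0.01 without the JJN3 control array).

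For most members the level under the combination was below that under either arm. No departure from the sum of the arms was called for any gene tested, which does not show that the arms were additive. The Combo mean was below both single-arm means in 46 of 50 members. Over all genes tested, Combo was below CPI203 in 46.7% and below LenDex in 49.2%. Genes below both arms were not counted over all genes. Adding LenDex to CPI203 gave a median of -0.33, and ZNHIT6 passed (-0.72 ± 0.10, limma adjusted p = 0.0473), where 0.0198% of all genes were called lower. The call was lost without JJN3, RPMI-8226, the JJN3 control array or the RPMI-8226 LenDex array and with JJN3 and RPMI-8226 averaged. It was also lost with the mean of a gene's probe sets, cyclic loess, median centring, no replicate block or only the arrays compared. Without ARP1, 3 members were called, against 0.158% of all genes called lower. Adding CPI203 to LenDex gave a median of -0.28 and no call, 0% of all genes being called lower. At an unadjusted p under 0.05 in limma, 22 members were lower, against 7.24% of all genes. Without ARP1, 8 members were called, against 2.1% of all genes called lower. The departure from additivity on the log2 scale had a median of 0.07 and was above 0 in 37 members. It was below 0 in 26% of the members and in 46.4% of all genes tested. Its median was -0.04 over members in ARP1, -0.01 over members in JJN3 and 0.23 for RPMI-8226, and the median was -0.03 without RPMI-8226. No member passed for this term (limma, every adjusted p = 1), where 0% of all genes were called in either direction. At an unadjusted p under 0.05 there were 3, against 3.11% of all genes: DDX10 (-0.71 ± 0.30), WDR74 (0.42 ± 0.14) and MYBBP1A (0.58 ± 0.26). For POLR1B the departure was 0.09 ± 0.16 and for NOP16 0.02 ± 0.18, which became -0.15 without RPMI-8226.

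The median of the members was lower under each treatment in every line, with the median Combo change nearest 0 in ARP1. The median level over the 50 members went from 9.88 in Control to 9.78, 9.61 and 9.32 under CPI203, LenDex and Combo in ARP1. In JJN3 it went from 10.00 to 9.58, 9.51 and 9.04, and in RPMI-8226 from 10.03 to 9.33, 9.17 and 9.11. The median Combo differences were -0.53, -0.73 and -0.77. Not every member followed that order. Among those with the largest Combo fall of the 3 lines in ARP1 were POLR1A, NOC2L and DDX10, at -0.83, -0.48 and -1.07 in that line. Tests of whether the drug effect differed between lines called no member, for CPI203 or for LenDex, where 0.323% and 0.369% of all genes were called (limma moderated F test). At an unadjusted p under 0.05 there were 6 and 5 members, against 14.7% and 13.6% of all genes, and a variance trend with a robust fit called 4 and 1, where it called 4.44% and 3.1% of all genes. The smallest adjusted p were 0.128 for WDR43 with CPI203 (-0.14, -0.51 and -0.92 in ARP1, JJN3 and RPMI-8226) and 0.209 for LTV1 with LenDex (-0.45, -0.74 and -1.60).

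Other probe sets of the same genes ran the same way. Of the members, 11 had 1 probe set and 39 had several, and 72 of the 76 further probe sets were lower under Combo. Of all genes tested, 48.1% were below 0 under Combo. The further probe sets read the same genes on the same 12 arrays, so these are not independent measurements. Among the 64 further probe sets with a mean log2 level of 6 or more, 63 were lower. POLR1B had 5 further probe sets, whose Combo differences ran from -1.32 to -0.97, and those of RRN3 were -0.90 and -0.73, larger than the -0.53 of the probe set used.

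Genes of the same pathway that were not on the list were counted in the same way. Under Combo, 48.1% of all genes tested were below 0, 5.6% were called lower and 3.55% higher. These shares also apply to the lists of the next paragraph. The counts of these lists were not repeated in the alternative fits. Of 10 other Pol I genes, 8 were below 0 under Combo and 4 were called lower (median -0.28). The 4 were TAF1A, of the promoter selectivity factor, at -0.98 ± 0.18, and the subunits POLR1G, POLR1F and POLR1E at -0.87 ± 0.12, -0.60 ± 0.10 and -0.44 ± 0.10 (limma adjusted p = 0.0127, 0.00522, 0.0105 and 0.0265). POLR1D, a subunit that Pol I shares with Pol III, had levels of 9.54, 10.73 and 10.30 in Control and 9.74, 10.95 and 10.59 under Combo. It was above its control in each line but did not pass (0.24 ± 0.09, adjusted p = 0.145), and POLR1H was at -0.39 ± 0.12 (adjusted p = 0.0661). Of 91 other ribosome biogenesis genes, 53 were called lower and none higher (median -0.52), led by the pre-60S factors BRIX1 at -1.43 ± 0.20 and GTPBP4 at -1.03 ± 0.12 and the small subunit factor WDR36 at -1.15 ± 0.13. The E-box was present in 29.9% of their 77 windows.

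The Pol III subunits moved in the direction of the members, whereas the Pol II subunits and the ribosome's own proteins had medians near 0. Of 10 Pol III subunits, 9 were below 0 under Combo and 4 were called lower (median -0.43). The 4 were POLR3G at -1.14 ± 0.18, POLR3K at -0.77 ± 0.10, POLR3E at -0.59 ± 0.10 and POLR3B at -0.47 ± 0.11. Of 7 Pol II subunits none was called lower (median 0.00) and POLR2A was called higher, at 1.10 ± 0.28 (limma adjusted p = 0.0386), with 0.22, 1.21 and 1.86 by line. Of 76 ribosomal protein genes, a list added after values were seen, none was called in either direction by limma. Their median was -0.02, and RPL27A (-0.61) and RPL7L1 (-0.29) were lower at an unadjusted p under 0.05. Whether signal level made changes in the ribosomal protein genes look smaller was not tested. MYC had levels of 12.35, 11.97 and 11.79 in Control and 11.64, 11.33 and 10.70 under Combo, a difference of -0.81 ± 0.15 (limma adjusted p = 0.0128), without overlap. Of the 9 genes of the MYC network, MYC and MLX (-0.40 ± 0.08) were called lower under Combo. MXD4, which encodes a partner of MAX that represses MYC targets, was called higher, at 1.36 ± 0.37 (limma adjusted p = 0.0481), with 0.08, 2.37 and 1.64 by line. MXD1, also named by the size of its Combo change, was not called under Combo.

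**Figure D4:**
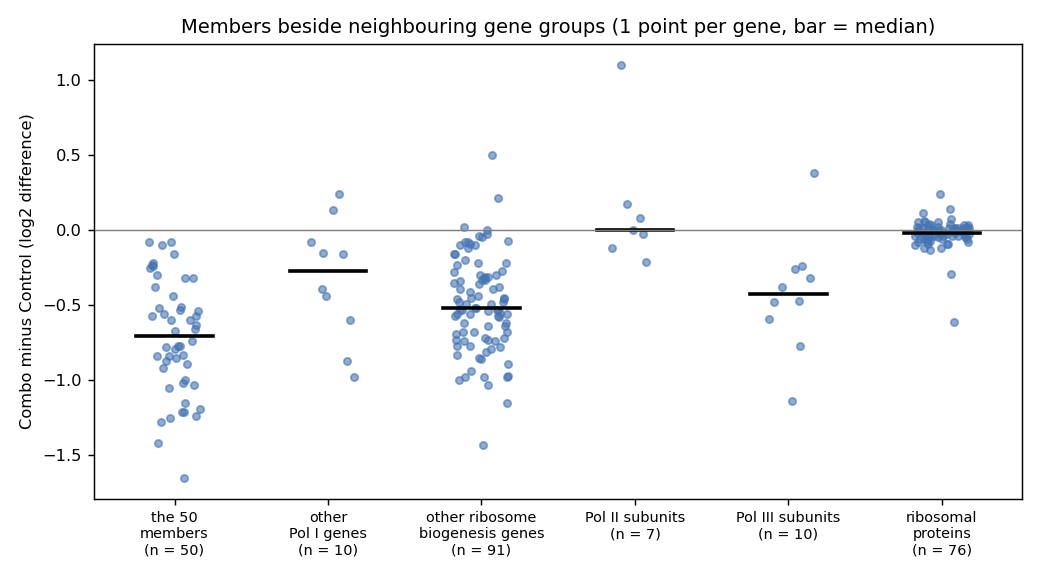
Combo minus Control in log2 units for each gene of the 50 members, of the neighbouring lists and of the ribosomal proteins, 1 point for each gene and a bar at the median. The medians of the members (-0.71), the other ribosome biogenesis genes (-0.52), the Pol III subunits (-0.43) and the other Pol I genes (-0.28) lie below 0. Those of the Pol II subunits (0.00) and the ribosomal protein genes (-0.02) lie at or near 0.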

How the data were processed

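The authors deposited log2 levels per probe set, made with RMA; the submitters' processing notes name Affymetrix Expression Console 1.1; a genome build is not given in the sources used here. Of 49386 probe sets, 45253 carried 1 gene symbol, 1327 several and 2713 none, and 93 were controls; 45172 of the first had a RefSeq gene. A gene took its single-symbol probe set with the highest mean and was tested if its log2 level was 5 or more on 3 or more arrays. Levels of different probe sets are not compared as amounts of RNA. limma 3.58.1 in R 4.3.3 was fitted to all 12 arrays with group and line as a block (6 residual degrees of freedom), and line differences were tested with line by drug terms (3 residual degrees of freedom). Tests were two-sided, with Benjamini-Hochberg adjustment over the 15173 genes tested and a threshold of 0.05. Comparisons share control arrays. The replicate number is the cell line, so it pairs the arrays: deviations from the group means correlated within a line at 0.82 to 0.94. The number of arrays limits the precision.

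Named members are the 5 Pol I genes, in each other role the 3 with the largest Combo change, the 3 with the largest and the 3 with the smallest spread between lines, and MYC; of neighbouring lists, POLR1D to POLR1H and the 3 called genes with the largest Combo change. Any further gene was named with its values known. The members and lists were chosen with earlier results of these data known. Motifs were searched in RefSeq windows of 300 bases. Alternatives covered the level filter, the probe set, the normalization between arrays, the variance model, the line block, the arrays averaged and the arrays left out; leaving out the RPMI-8226 LenDex array was chosen after seeing the data.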

Additional observations from a re-analysis of the deposited data

How the results depend on the processing

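Unless said otherwise, values are counts of members called lower in limma. No alternative called a member higher, and no named difference that was called, in the fit reported or in an alternative, changed sign. Differences that were not called did change sign, in 25 of 403 values of the departure from additivity and, in the other comparisons together, for DDX10, MYBBP1A, NCL and NPM1: DDX10 under LenDex against Control (0.21) was -0.06 without JJN3 and -0.01 without the JJN3 control array, its LenDex average (-0.14) was 0.11 without ARP1, and MYBBP1A in Combo against LenDex (-0.24) was 0.06 without JJN3. The line is the replicate block, since a number marks a line, and with no replicate block the counts fell to 0 for the CPI203 average, 0 for the LenDex average, 0 for LenDex against Control, 2 for Combo against Control and 0 for Combo against CPI203. Averaging the JJN3 and RPMI-8226 values of a condition, these 5 counts were all 0. With either setting, 0.0132% or less of all genes were called lower. A variance trend with a robust fit gave 29 for the CPI203 average, 14 for CPI203 against Control, 17 for LenDex against Control, 10 for Combo against CPI203, 6 for Combo against LenDex, and 4 and 1 members called in either direction for the line differences with CPI203 and LenDex. LenDex against Control gave 10 with a mean level of 6 or more, 10 with the mean of all probe sets, 1 with cyclic loess and 2 with median centring; Combo against CPI203 gave 0 with the last 3 settings.

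Without the JJN3 control array the counts were 3 (CPI203 average), 15 (LenDex average), 0 (LenDex against Control), 23 (Combo against Control) and 0 (Combo against CPI203), and without the RPMI-8226 LenDex array they were 5, 14, 0, 36 and 0. Fits of only the 6 arrays compared gave 0 for LenDex against Control, Combo against Control and Combo against CPI203. Leaving out each line in turn gave 0 to 23 for the CPI203 average, 0 to 22 for the LenDex average, 0 to 12 for CPI203 against Control, 0 to 9 for LenDex against Control, 0 to 33 for Combo against Control, 0 to 3 for Combo against CPI203 and 0 to 8 for Combo against LenDex. The highest value was always without ARP1, where 7.72%, 2.66%, 3.38%, 0.732%, 6.78%, 0.158% and 2.1% of all genes were called lower, in this order. Without JJN3 or without RPMI-8226, 0% of all genes were called lower in each comparison. Smaller fits have fewer arrays and fewer residual degrees of freedom; the causes of the other shifts were not tested. Medians moved less than counts, from -0.34 to -0.26 for the CPI203 average and from -0.42 to -0.33 for the LenDex average. Of the values of named genes under the alternatives, 2882 kept their side of the threshold, 116 moved inside it and 381 moved outside it. Leaving out the RPMI-8226 LenDex array was chosen after seeing the data.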
